A study of Homo sapiens with 6 samples.

Results

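The genes described here were 10 genes of long-chain fatty acid activation and oxidation, namely ACSL1, ACSL3, ACSL4 and ACSL5 (long-chain acyl-CoA synthetases), CPT1A and CPT2 (the carnitine shuttle), and ACADVL, ACADM, HADHA and HADHB (mitochondrial beta-oxidation). They were taken by symbol from the deposited count table, where each of the 10 had 1 row among 31762 genes. Both groups were H460 cells, a wild-type human lung carcinoma line, grown in RPMI-1640 medium with fetal bovine serum. One group of 3 libraries was labelled control, with no vehicle named in the labels, and the other group of 3 libraries received 20 µM fluoxetine for 24 h. Total RNA was sequenced to ask how fluoxetine changed the transcriptome, and the labels do not say whether the libraries of a group came from separate cultures, so the p-values measure the spread between these libraries. All libraries came from 1 cell line, fewer cells of a kind and less RNA per cell cannot be told apart in bulk RNA, and RNA counts do not measure enzyme activity or fatty acid flux.

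Free long-chain fatty acids enter metabolism only after an acyl-CoA synthetase joins them to coenzyme A. The acyl-CoA can then go into membrane and storage lipids, or it can be passed to carnitine by CPT1 on the outer mitochondrial membrane, carried inward and returned to coenzyme A by CPT2. In the matrix, acyl-CoA dehydrogenases and the trifunctional protein shorten the chain by repeated turns of beta-oxidation. The synthetases therefore stand before the branch between lipid synthesis and oxidation, whereas the other 6 genes belong to the oxidative branch.

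The libraries held between 16157507 and 27823667 counts, and every fluoxetine library was shallower than every control library. Control replicate 3 stood apart from the other controls. The chi-square per degree of freedom between libraries was 21.7 against control replicate 1 and 12.4 against control replicate 2, beside 5.63 between control replicates 1 and 2 and 20.7 to 46.4 between the groups. At these depths 3 counts, the limit that a count of 0 allows, corresponded to 0.108 to 0.186 CPM of the unscaled library totals, which covers counting error only. The levels below are in CPM after TMM scaling, a correction of library size that makes CPM values comparable between libraries. Keratin transcripts of epithelial cells, KRT8, KRT18 and KRT19, were abundant, but EPCAM and CDH1 had at most 11 and 1 counts in any library, and the alveolar genes NKX2-1, SFTPC and NAPSA at most 9, 3 and 7. The 6 epithelial markers summed to 3058 to 4028 CPM in control and 2689 to 3264 CPM in fluoxetine libraries, and 1 of them, KRT18, fell by 0.72 on the log2 scale (edgeR adjusted p = 0.00162). The 4 fibroblast markers summed to 8.54 to 10.1 CPM in control and 12.1 to 13.5 CPM with fluoxetine, with COL1A2 at 2 counts or fewer. Of these, LUM rose by 0.88 (edgeR adjusted p = 0.00448), whereas COL1A1, at 3.21 to 5.35 CPM, had a log2 change of -0.17 (edgeR adjusted p = 0.649). PTPRC, PECAM1, ALB, APOA1 and TTR were at 2 counts or fewer in every library, while CD14, a monocyte marker, had up to 46 counts (1.62 to 2.33 CPM) and a log2 change of 0.20 (edgeR adjusted p = 0.601). Among the 6 epithelial markers, KRT8, KRT18 and KRT19 alone were abundant, while a further keratin gene, KRT7, had at most 20 counts in any library (0.654 to 1.15 CPM). The part of these marker shifts in the results below was not tested.

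The change of each gene was tested with the quasi-likelihood method of edgeR, p-values were adjusted (Benjamini-Hochberg) over all 15646 genes with enough counts, and a gene counted as called when its adjusted p was below 0.05. In this comparison 13.1% of all tested genes were called, 7.76% as higher and 5.32% as lower with fluoxetine. Of the 10 genes, 9 could be tested and ACSL5 was too rare. Fluoxetine raised 3 of the 9, the synthetase genes ACSL1, ACSL3 and ACSL4, and lowered 1, ACADVL, the dehydrogenase gene for very long chains. The other 5, CPT1A, CPT2, ACADM, HADHA and HADHB, did not pass. Among the 9, ACSL1 alone also reached a fold change of 2, as did 1.39% of all tested genes, 1.25% in the upward direction. In 6 of the 9 genes the control and fluoxetine libraries did not overlap, as in 31.9% of all tested genes. Without control replicate 3 the changes on the log2 scale were 1.43 for ACSL1, 0.71 for ACSL3, 0.69 for ACSL4 and -0.41 for ACADVL, each still called (the largest edgeR adjusted p = 0.00249, for ACADVL), and 3633 genes were called in all in place of 2047. The log2 fold changes had a median of 0.21 over the 9 genes and 0.03 over all tested genes.

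**Figure D1:**
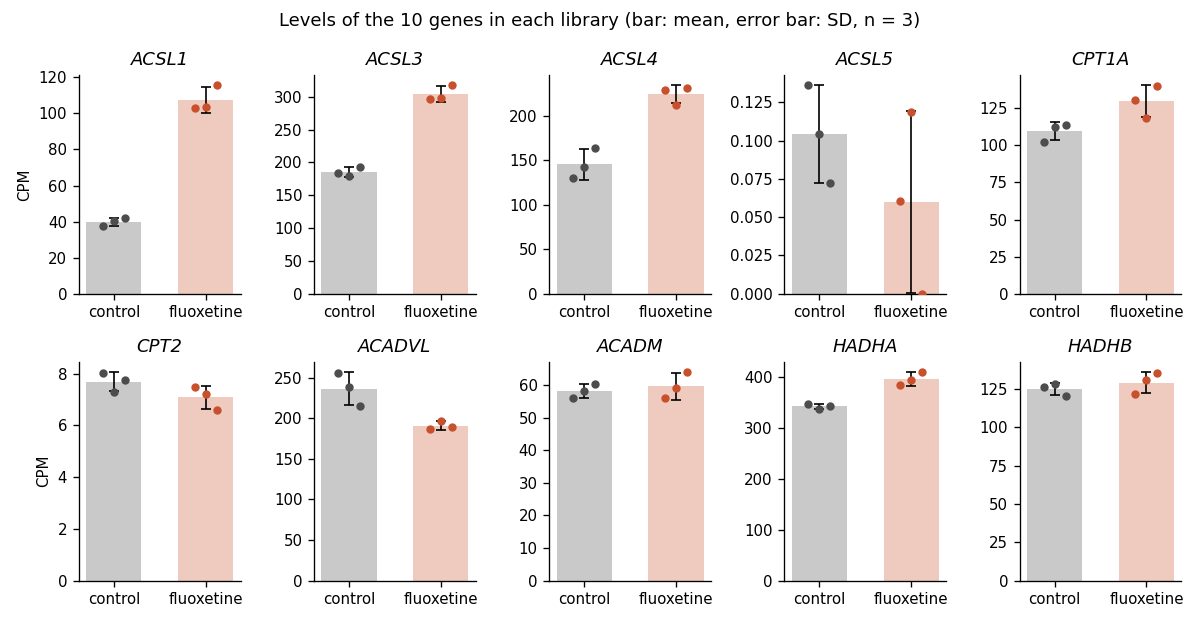
Level of each of the 10 genes in CPM on a linear axis from 0, with control libraries in grey and fluoxetine libraries in orange. Points are single libraries, bars are means and error bars are SD of 3 libraries. ACSL1, ACSL3, ACSL4, CPT1A and HADHA are higher and ACADVL is lower in every fluoxetine library than in every control library. Of these, CPT1A and HADHA were not called. ACSL5 stays at 3 counts or fewer.

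ACSL1 encodes a synthetase of the outer mitochondrial membrane and the endoplasmic reticulum that activates fatty acids for both oxidation and triglyceride synthesis. The gene (ENSG00000151726) lies on the minus strand of chromosome 4 from 184755595 to 184826818 in GRCh38. Its level was 37.3, 40.4 and 41.9 CPM in control replicates 1, 2 and 3, and 103.0, 103.6 and 115.6 CPM in fluoxetine replicates 1, 2 and 3. The lowest treated library was thus more than 2 times the highest control library. The mean rose from 39.9 ± 2.31 to 107.4 ± 7.14 CPM (SD, n = 3 each), a 2.69-fold increase. The log2 fold change was 1.43 (standard error 0.08, 95% interval 1.24 to 1.62, edgeR adjusted p = 4.95e-06), and by p-value ACSL1 was number 20 of all 15646 tested genes. It was called under all 14 alternative settings, with log2 fold changes between 1.35 and 1.46.

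ACSL3 encodes the synthetase of the endoplasmic reticulum and of lipid droplets, where it feeds acyl-CoA into neutral lipid. The gene (ENSG00000123983) lies on the plus strand of chromosome 2 from 222860934 to 222944639. Control libraries 1 to 3 held 184.3, 178.5 and 192.8 CPM and fluoxetine libraries 1 to 3 held 296.0, 298 and 317.5 CPM, with no overlap. The log2 fold change was 0.71 (standard error 0.07, 95% interval 0.56 to 0.86, edgeR adjusted p = 1.42e-04), a 1.64-fold increase.

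ACSL4 encodes the synthetase that prefers arachidonate and other polyunsaturated fatty acids, and its product is known to make membranes prone to lipid peroxidation in ferroptosis. The gene (ENSG00000068366) lies on the minus strand of chromosome X from 109624244 to 109733403. Its level was 130.04, 142.6 and 163.7 CPM in control libraries 1 to 3 and 228.9, 212.5 and 231.3 CPM in fluoxetine libraries 1 to 3. The control libraries were the more spread ones, with an SD of 17.0 CPM against 10.2 CPM after treatment, yet the groups did not overlap. The log2 fold change was 0.62 (standard error 0.09, 95% interval 0.42 to 0.82, edgeR adjusted p = 0.00197), a 1.54-fold increase. ACSL3 and ACSL4 stayed called under all 14 alternative settings as well. The intervals of the ACSL3 and ACSL4 changes overlapped, while that of ACSL1 lay above both.

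ACSL5 encodes a synthetase best known from intestine and liver. The gene (ENSG00000197142, chromosome 10, 112374018 to 112428380, plus strand) had 3, 2 and 2 counts in control replicates 1 to 3 and 1, 2 and 0 in fluoxetine replicates 1 to 3. Both groups were at or under 3 counts per library, so no fold change is given, and a difference was not detectable at this depth. The count of 0 in fluoxetine replicate 3 allows a level of up to 0.175 CPM. ACSL5 overlaps ZDHHC6 on the other strand by 3953 bases. ZDHHC6 had 1158 to 2282 counts per library and a log2 change of -0.20 (edgeR adjusted p = 0.108). Whether counting used the strand is not given in the sources used here, so reads from this overlap are uncertain.

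**Figure D2:**
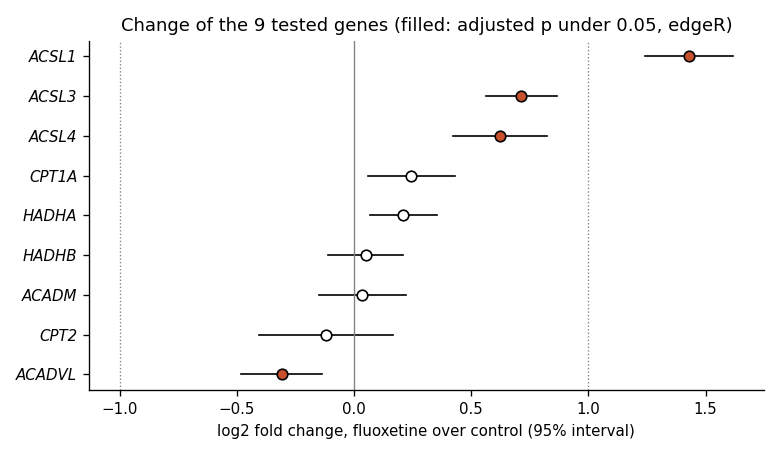
Log2 fold change of fluoxetine over control for the 9 tested genes, with 95% intervals as lines and dotted lines at a fold change of 2 in either direction. Filled points are the genes with an adjusted p-value under 0.05, which are ACSL1 at 1.43, ACSL3 at 0.71, ACSL4 at 0.62 and ACADVL at -0.31.

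The sequences before RefSeq starts of the 3 synthetase genes that rose are shown because these genes moved together. They are RefSeq promoter windows of GRCh38.p14, cut to the longest stretch within 250 bases before a RefSeq start that touches no exon of GENCODE release 29, and each is written 5′ to 3′ on the strand of its gene. Of the 10 genes, 10 matched that table, with 16 windows in all, 5 of them for ACSL1, whose window with the outermost RefSeq start is given. The ACSL1 stretch lies inside the GENCODE bounds of that gene. Capitals mark GC boxes (GGGCGG on either strand), to which factors of the SP family bind.
ACSL1, chr4:184826120-184826218, minus strand: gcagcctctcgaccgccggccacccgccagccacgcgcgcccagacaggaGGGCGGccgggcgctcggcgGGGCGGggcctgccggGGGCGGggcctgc
ACSL3, chr2:222860786-222860933, plus strand: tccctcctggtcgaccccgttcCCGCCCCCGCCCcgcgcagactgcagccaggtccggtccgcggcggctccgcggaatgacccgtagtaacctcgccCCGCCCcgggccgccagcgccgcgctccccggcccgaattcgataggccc
ACSL4, chrX:109733404-109733507, minus strand: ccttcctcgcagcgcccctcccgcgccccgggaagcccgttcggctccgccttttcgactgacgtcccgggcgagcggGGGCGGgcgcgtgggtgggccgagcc

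The full windows of 250 bases before these starts were rich in G and C, at 83.6% for ACSL1, 75.2% for ACSL3 and 77.2% for ACSL4. A GC box was found in 9 of the 16 windows, from 8 of the 10 genes, including HADHB and ACADM, which were not called, and in 42.6% of 35116 windows of all genes. The E-box CACGTG was in no window of the 10 genes, against 6.35% of all windows, and likewise the C/EBP-ATF letters TGATGNAA (3.14% of all windows), the DR1 element of PPAR sites, a repeat of AGGTCA with 1 base between (0.0171%), and the estrogen-related receptor letters TCAAGGTCA (0.319%) were absent. The letters TCACNCCAC of a sterol regulatory element were found in 1 of the 16 windows, as GTGGGGTGA when read on the strand of ACSL1, 242 bases before an internal start at 184805553, and in 0.883% of all windows. The CCAAT letters were present 75 bases before the ACSL3 start and in that same internal ACSL1 window (32.0% of all windows), and TATAAA, read on the opposite strand, 32 bases before the outer ACADVL start (10.7% of all windows). These matches on both strands are letters only, and binding was not measured.

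Within each library the 3 expressed synthetase genes could be compared without scaling, by their counts per base of exon. ACSL1 made up 11.5%, 12.05% and 11.3% of the summed synthetase signal in control replicates 1 to 3, and 17.6%, 18.2% and 18.7% in fluoxetine replicates 1 to 3. The mean share of ACSL1 was thus higher by 6.55 percentage points after treatment, whereas that of ACSL4 was lower by 4.24 points, from 41.4 ± 2.09% to 37.2 ± 1.04% (SD, n = 3 each). For ACSL1 and ACSL4 the groups did not overlap, and the two-sided exact permutation test gave p = 0.1 for each, the smallest value that 3 libraries against 3 allow (adjusted p = 0.2 over 4 shares). The ACSL3 share was 49.2%, 46.2% and 45.3% in control and 44.0%, 45.3% and 44.6% in treated libraries, and the groups overlapped (exact permutation p = 0.2). Its difference of -2.29 points was -1.12 without control replicate 1, and with the longest transcript as length it was -2.97 and the groups did not overlap (exact permutation p = 0.1). The ACSL5 share was at most 0.0621% in any library. The summed synthetase level rose from 54.6 ± 3.74 to 94.0 ± 3.87 CPM per kilobase of exon (SD, n = 3 each, exact permutation p = 0.1).

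**Figure D3:**
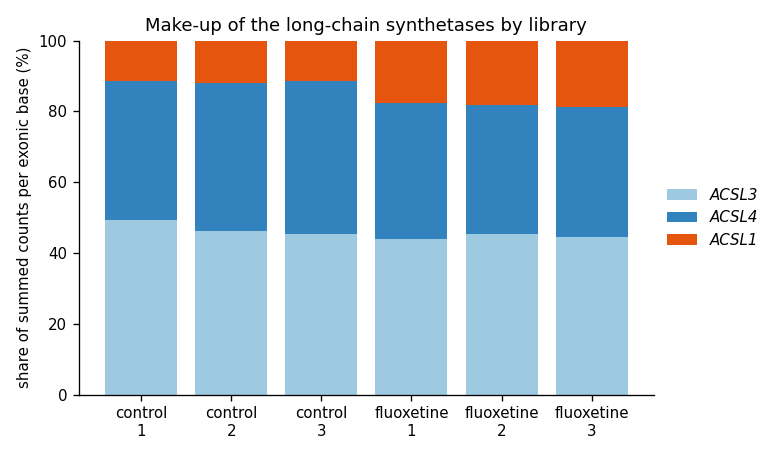
Share of ACSL3, ACSL4 and ACSL1 in the summed counts per exonic base of the synthetase genes, in percent, for each of the 6 libraries. ACSL5, at most 0.0621%, is left out as too small to see. The ACSL1 segment lies between 11.3% and 12.05% in control and between 17.6% and 18.7% in fluoxetine libraries.

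The carnitine shuttle genes did not pass the test. CPT1A encodes the rate-limiting carnitine palmitoyltransferase of the outer membrane, which malonyl-CoA inhibits (ENSG00000110090, chromosome 11, 68754620 to 68844410, minus strand). It was at 102.4, 112.6 and 113.5 CPM in control libraries 1 to 3 and at 130.9, 118.5 and 140.0 CPM in fluoxetine libraries 1 to 3. All treated libraries were above all control libraries, but the log2 fold change was 0.24 (95% interval 0.06 to 0.43, edgeR adjusted p = 0.0802). CPT2, the inner-membrane partner (ENSG00000157184, chromosome 1, 53196429 to 53214197, plus strand), was far rarer, with 113 to 215 counts per library. It had 8.03, 7.29 and 7.75 CPM in control and 7.47, 7.20 and 6.58 CPM in treated libraries, and the groups overlapped. Its log2 fold change was -0.12 (95% interval -0.41 to 0.17, edgeR adjusted p = 0.601), and its interval was the widest of the 9 genes. The last 99 bases of CPT2 overlap C1orf123, a gene of the other strand with a log2 change of -0.22 (edgeR adjusted p = 0.273).

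The dehydrogenase genes differed from each other. ACADVL encodes the very-long-chain enzyme of the inner membrane, which takes the first step for the chains that the ACSL and CPT enzymes deliver (ENSG00000072778, chromosome 17, 7217125 to 7225273, plus strand). It was at 255.7, 239.0 and 214.7 CPM in control libraries 1 to 3 and at 186.5, 197.3 and 189.0 CPM in fluoxetine libraries 1 to 3. The lowest control library was control replicate 3, and it still lay above the highest treated one. The log2 fold change was -0.31 (standard error 0.08, 95% interval -0.48 to -0.13, edgeR adjusted p = 0.0284), a percent change of -19.3%. This call was lost when any of 4 libraries was left out, with adjusted p = 0.0554 without control replicate 1, 0.0741 without control replicate 2, 0.121 without fluoxetine replicate 1 and 0.0921 without fluoxetine replicate 3, all from edgeR. ACADVL overlaps DLG4 on the other strand by 2578 bases. DLG4 had 74 to 150 counts per library against 3071 to 5961 for ACADVL, and its own log2 fold change was -0.02 (edgeR adjusted p = 0.968).

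ACADM encodes the medium-chain dehydrogenase (ENSG00000117054, chromosome 1, 75724347 to 75787575, plus strand). Its libraries held 56.1, 58.2 and 60.5 CPM in control and 56.0, 59.1 and 64.1 CPM after treatment, so the ranges overlapped almost wholly. The log2 fold change of 0.04 had a 95% interval of -0.15 to 0.22 (edgeR adjusted p = 0.814) and fell slightly below 0 in 3 of 14 alternative settings. The end of ACADM overlaps RABGGTB on the same strand by 1379 bases, and RABGGTB had a log2 fold change of -0.27 (edgeR adjusted p = 0.0542), so how shared reads were assigned could affect the ACADM count.

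HADHA and HADHB encode the alpha and beta subunits of the trifunctional protein, which carries out the last 3 steps of a beta-oxidation turn on long chains. The genes stand head to head on chromosome 2, HADHA (ENSG00000084754) from 26190635 to 26244726 on the minus strand and HADHB (ENSG00000138029) from 26243170 to 26290468 on the plus strand. Their RefSeq starts are 306 bases apart, and the stretch between them that no GENCODE exon covers is 21 bases long. It is shown, on the plus strand of GRCh38.p14, because the same bases lie before the RefSeq starts of both genes. The stretch lies inside the bounds of HADHB given above, which begin at 26243170.
HADHA to HADHB, chr2:26244727-26244747: ccggccccttagccctgcccc

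HADHA was the most abundant of the 10 genes per length. Its level was 346.0, 337.7 and 342.4 CPM in control libraries 1 to 3 and 383.2, 394.6 and 409.6 CPM in fluoxetine libraries 1 to 3. The groups did not overlap, but the log2 fold change of 0.21 (standard error 0.06, 95% interval 0.07 to 0.35) missed the threshold with an edgeR adjusted p = 0.0554. HADHA passed in 2 of 14 alternative settings, with library sizes alone in place of TMM (edgeR adjusted p = 0.0320) and with the replicate number as a block (edgeR adjusted p = 0.0486). In the other 12 it did not pass, among them DESeq2 (adjusted p = 0.150) and the fit without fluoxetine replicate 3 (edgeR adjusted p = 0.340). HADHB was at 126.1, 128.0 and 120.4 CPM in control and 121.7, 130.5 and 135.2 CPM in treated libraries, with overlapping groups and a log2 fold change of 0.05 (95% interval -0.11 to 0.21, edgeR adjusted p = 0.689). The ratio of HADHA to HADHB counts, which does not depend on library size, was 2.74, 2.64 and 2.84 in control and 3.15, 3.02 and 3.03 in fluoxetine libraries. All treated libraries had a higher ratio, with a difference of 0.16 on the log2 scale (exact permutation p = 0.1, two-sided, the smallest possible). The 2 genes overlap by 1557 bases, and whether counting used the strand is not given in the sources used here, so reads from the overlap are uncertain. The processed pseudogenes HADHAP1 and HADHAP2 had at most 1 count in any library.

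Per kilobase of exon (the union of all GENCODE exons), the order of the levels in control cells was HADHA at 78.0 ± 0.952, ACADVL at 48.6 ± 4.24, HADHB at 29.2 ± 0.920, ACSL3 at 25.6 ± 0.994, ACSL4 at 22.7 ± 2.65, CPT1A at 16.7 ± 0.940, ACADM at 12.2 ± 0.466, ACSL1 at 6.34 ± 0.368 and CPT2 at 0.736 ± 0.0354 CPM per kilobase (SD, n = 3 each), with ACSL5 last. Only the ranges of ACSL3 and ACSL4 overlapped among neighbours in this order. In fluoxetine-treated cells the order was HADHA (90.3), ACSL3 (42.0), ACADVL (39.2), ACSL4 (35.0), HADHB (30.2), CPT1A (19.8), ACSL1 (17.1), ACADM (12.5) and CPT2 (0.678), where only CPT1A and ACSL1 overlapped as neighbours. ACSL3 thus stood behind ACADVL in control cells and ahead of it in treated cells, but the order depends on the length used. With the longest transcript as length, ACADVL stayed ahead in treated cells (81.2 against 53.5 CPM per kilobase), ACADM stood above CPT1A in control cells, and HADHB stood above ACSL4 and ACSL1 above CPT1A in treated cells, each of these 3 pairs with overlapping ranges.

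The wider pathway was described with 8 lists, written from general knowledge but with earlier results of these data known. They held 106 genes, none of them among the 10. Of these, 85 were tested, 8 were called higher and 1 lower, which is 10.6% of those tested, beside 13.1% of all genes. Over these 85 genes the median change was 0.05 on the log2 scale. None of the 16 other mitochondrial beta-oxidation genes (0), none of the 8 other carnitine shuttle genes (0), none of the 9 acyl-CoA thioesterases (0) and none of the 4 ketone body genes (0) was called by edgeR. In the same order, 3, 1, 0 and 1 of them had an unadjusted p under 0.05, as 28.7% of all tested genes had, DESeq2 called 1, 0, 0 and 0, limma called 0 in each, and the groups did not overlap for 4, 1, 3 and 2, beside 31.9% of all tested genes. The other mitochondrial beta-oxidation genes had a median log2 change of -0.07, with values from -0.28 for ACAA2, a mitochondrial thiolase, to 0.22 for ACAD10.

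Among 13 other acyl-CoA synthetase genes, 2 were called and both rose, which is 15.4%, beside 13.1% of all tested genes called. ACSS2, the cytosolic synthetase that turns acetate into acetyl-CoA, went from 23.7, 24.6 and 22.3 CPM in control to 72.2, 78.6 and 71.8 CPM in treated libraries. The change on the log2 scale was 1.66 with a standard error of 0.09 (edgeR adjusted p = 2.15e-06). AACS, acetoacetyl-CoA synthetase, rose by 0.32 (edgeR adjusted p = 0.0401), and lost its call with DESeq2 (adjusted p = 0.0614), with RLE scaling, without the filter on low counts and in each of the 6 fits that left out 1 library. SLC27A4, a fatty acid transporter with synthetase activity, had a log2 fold change of 0.34 and did not pass (edgeR adjusted p = 0.0536).

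Of 12 peroxisomal genes, 1 was called, as higher, which is 8.33%, beside 13.1% of all tested genes called. PHYH, which starts alpha-oxidation of phytanic acid, rose by 0.44 on the log2 scale (20.7 ± 1.96 to 27.9 ± 1.37 CPM, SD, n = 3 each, edgeR adjusted p = 0.0230). The call was lost without control replicate 2 (adjusted p = 0.0880) or fluoxetine replicate 1 (0.108), 2 (0.0703) or 3 (0.0866), all from edgeR.

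Of 14 regulators of fatty acid oxidation, 4 were called, all higher, beside 7.76% of all tested genes called higher. This list, like the others, was written with earlier results of these data known. PPARGC1A, the coactivator PGC-1alpha, was at 7.44, 7.92 and 8.83 CPM in control and at 21.3, 21.2 and 22.5 CPM in treated libraries, which is 1.42 on the log2 scale with a standard error of 0.11 (edgeR adjusted p = 3.72e-05). PRKAA2, a catalytic subunit of AMPK, rose by 0.79 (adjusted p = 0.00273) and ACACA, the carboxylase that makes malonyl-CoA for fatty acid synthesis, by 0.76 (adjusted p = 0.00346, both from edgeR). PPARA, the nuclear receptor for fatty acids, was rare and rose by 0.75, from 3.16 ± 0.325 to 5.33 ± 0.794 CPM (SD, n = 3 each, edgeR adjusted p = 0.0212). ACACB, the mitochondrial carboxylase whose product restrains CPT1, had a log2 fold change of 0.45 (edgeR adjusted p = 0.0554). PPARA lost its call without control replicate 1 (adjusted p = 0.0823), control replicate 2 (0.102), fluoxetine replicate 1 (0.124) or fluoxetine replicate 3 (0.0726), all from edgeR.

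The 9 tested PPAR target genes outside the 10 had a median log2 change of -0.02. Of these, 1 was called higher and 1 lower, together 22.2%, beside 13.1% of all tested genes called. PDK4, the kinase that closes the entry of pyruvate into the mitochondrial cycle, rose by 0.99 (13.2, 13.4 and 15.4 CPM in control, 28.6, 27.5 and 27.9 CPM in treated libraries, edgeR adjusted p = 2.40e-04). FABP5, a fatty acid binding protein gene, had 63 to 81 counts in control and 25 to 33 in the shallower treated libraries. It fell by 0.82 on the log2 scale, from 3.13 ± 0.187 to 1.76 ± 0.214 CPM (SD, n = 3 each, edgeR adjusted p = 0.0237). That call was lost without control replicate 1 (adjusted p = 0.0570), control replicate 2 (0.0744), fluoxetine replicate 1 (0.112) or fluoxetine replicate 3 (0.0581), all from edgeR. PLIN2 and ANGPTL4, which are widely used as PPAR target genes, had log2 fold changes of -0.02 and -0.10 with adjusted p-values of 0.952 and 0.816 from edgeR.

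**Figure D4:**
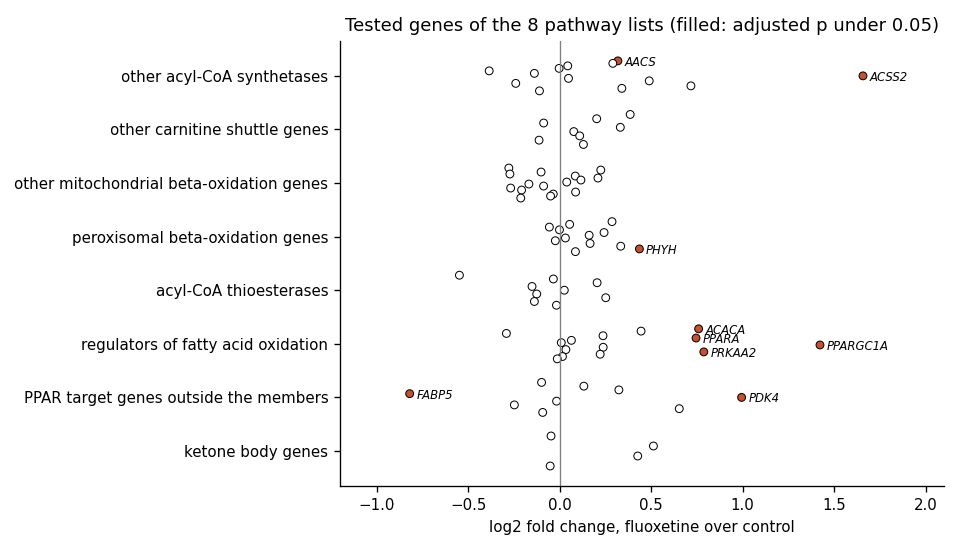
Log2 fold change of fluoxetine over control for the 85 tested genes of 8 lists of related genes, 1 point per gene, filled and named where the adjusted p-value was under 0.05. The 9 filled points are 8 genes above 0, up to 1.66 for ACSS2, and FABP5 at -0.82, and the rows of mitochondrial, carnitine, thioesterase and ketone body genes hold open points alone.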

How the data were processed

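RNA was sequenced as paired-end reads in 3 control and 3 fluoxetine libraries of H460 cells. The authors deposited a raw count per gene and library, neither normalized nor pooled. The submitters' processing notes name fastp 0.20.0, HISAT2 2.1.0, HTSeq 0.10.0 and DESeq2 1.18.1. The genome build, annotation and strand setting are not given in the sources used here. The gene positions of all 10 genes were those of GENCODE release 29 (GRCh38), which supplied exon lengths. The table's log2 fold change and p-value columns hold the authors' own comparison and were not used.

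Tests used edgeR 4.0.16 under R 4.3.3 (glmQLFit and glmQLFTest, TMM, filterByExpr, no covariate), after the scripts were tested on simulated data. There 76 of 100 planted log2 changes of size 1 and 57 of 100 of size 0.6 were recovered, with 11 false calls. Depth was 16157507 to 27823667 counts per library. Levels are CPM after TMM. A fold change of 2 is the one the study used. Promoter windows were RefSeq's. The 10 genes and the lists were chosen with earlier results of these data known. Named beyond the 10 were up to 4 called genes per list by p-value and those changed 2-fold. Overlapping genes were named where any library held more than 11 counts. Others named were chosen after their values were seen. A further gene was left out of the lists and is not reported here. Pairs of libraries within a group differed by more than sampling noise (chi-square per degree of freedom of 3.49 to 21.7). Alternatives were DESeq2 1.42.0, limma-voom (limma 3.58.1), RLE, library size only, no filter, the replicate number as a block, a minimum of 10 counts per library, equal depth, leaving out each library, and the longest transcript as length.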

Additional observations from a re-analysis of the deposited data

How the results depend on the processing

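ACSL1, ACSL3 and ACSL4 were called as higher in all 14 settings, and ACSL1 alone reached a fold change of 2 in each. Leaving out each library in turn left 0 to 1 of the 10 genes called lower, 572 to 3633 genes called in all, and 5 to 9 higher and 0 to 8 lower genes of the lists. The lowest total was without fluoxetine replicate 1 and the highest without control replicate 3. The list genes called higher fell to 5 without control replicate 2 or without fluoxetine replicate 1 or 3, and those called lower were 8 without control replicate 3, 6 without fluoxetine replicate 2 and 0 without any other library. Leave-one-out log2 fold changes spanned 0 for ACADM (-0.040 to 0.053) and HADHB (-0.0097 to 0.063). The lists had 3 lower genes with DESeq2, 3 with RLE and 2 without a filter. The replicate number as a block, which the labels do not tie to a shared culture and which correlated at 0.0297, 0.116 and 0.392 for replicates 1, 2 and 3, gave 5 of the 10 genes called higher (CPT1A and HADHA added), 4018 genes in all, and 15 higher and 4 lower list genes. Not every library correlated best with its own number. The differences in the synthetase shares and in the HADHA to HADHB ratio kept their direction in every setting run. The causes of these shifts were not tested. Depth limits ACSL5.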
